A study of Mus musculus with 34 samples.

Results

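The Srrm family of serine/arginine repetitive matrix proteins was followed through its 4 genes in mouse N2A neuroblastoma cells, Srrm1 (ENSMUSG00000028809), Srrm2, Srrm3 and Srrm4, chosen by name from 52661 genes with an expression value. The exons and introns of these genes made up 94 of the 320772 exon and intron events quantified, with 21 events in Srrm1, 22 in Srrm2, 28 in Srrm3 and 23 in Srrm4. Polyadenylated RNA was sequenced in 34 libraries of N2A cells, a single cell line carrying no engineered allele in the labels, after 24 h with 1 of 27 compounds or with the solvent dimethyl sulfoxide (DMSO), which was present in all groups. DMSO had 3 libraries, the histone deacetylase (HDAC) inhibitors Vorinostat, CI-994, BRD6688 and BRD4884 had 2 libraries each, and the other 23 compounds had 1 library each. The compounds had come out of a screen for microexons, exons of at most 27 nt, with reporters that carried a microexon of Mef2d. Of these compounds, 17 were classed as activators and 10 as inhibitors of microexon inclusion. The activators were the 4 HDAC inhibitors, A-443654, NVP-AEW-541, Trametinib, Crenolanib, SCH-772984, GNF-5837, BTB12021, BTB13120, RDR00572, S02045, BTBS00065, SEW06315 and RH01954. The inhibitors were 5-azacytidine, MK-1775, AW00693, SPB00858, JFD00822, T5635931, T5758020, T5963258, T5985871 and Dissimilar_18_P14. Each compound was given at 1 dose, between 250 nM for A-443654 and 20 μM for BTB12021 and SPB00858.

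Serine/arginine-rich proteins bind precursor mRNA or one another and help the spliceosome recognise exons. Srrm4 is a neural member that promotes the inclusion of microexons in neurons by acting near their upstream splice site, and Srrm3 shares with it the domain required for this activity. Srrm1 and Srrm2 are expressed in most cell types. Srrm1 is a splicing coactivator found with exon junction proteins, and Srrm2 is a core component of the spliceosome and, with Son, a scaffold of nuclear speckles.

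The cell line label was compared with marker genes. In DMSO, 10 of 11 sympathetic neuroblastoma markers were above 5 RPKM, among them Hand2 at 247.5 RPKM and Chga at 94.8 RPKM. None of the 4 fibroblast, 2 leukocyte and 2 glial markers was above 5 RPKM in DMSO. The summed fibroblast markers were between 0.31 and 23.3 RPKM over the 28 conditions, with the highest value in CI-994, and their part in the results below was not tested.

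Expression was measured in 2 ways. The deposited RPKM values, reads per kilobase of transcript scaled to the depth of sequencing, allow levels to be compared between genes, but merge the libraries of a condition into 1 value. The second measure, the junction read level, counted the reads that joined a gene's exons in each library, per 1000000 such reads of the library (junction RPM), and allowed tests between libraries. The libraries held 17702718 to 40613524 exon-exon junction reads, with a median of 26332957.5, and the shallowest was 1 of the Vorinostat libraries. Over the libraries, the members had 3687 to 16843 reads for Srrm1, 2342 to 7369 for Srrm2, 479 to 3180 for Srrm4 and 121 to 790 for Srrm3, so that Srrm3 was measured with the least precision. A change was called at an adjusted p under 0.05 by limma with Benjamini-Hochberg adjustment over 10689 genes in each compound. The adjustment depends on how many other genes changed in a compound, so equal changes of a member could differ in their call between compounds. The 1-library compounds were assumed in this fit to vary as DMSO and the HDAC inhibitors did. The labels do not say whether libraries of a group came from separate cultures, so the p-values measure only the spread between these libraries.

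On the RPKM scale, which accounts for gene length, the members were ordered Srrm1, Srrm2, Srrm3 and Srrm4 in DMSO, at 251.4, 83.9, 18.5 and 10.4 RPKM. These are the authors' merged values and have no spread over libraries, so no pair of neighbours in that order was tested. In junction RPM the 2 neural members had the reverse order in DMSO, with means of 41.6 for Srrm4 and 16.3 for Srrm3. Those reads were summed over 12 and 14 introns. Which of these 2 members had the higher level thus depended on the measure. The 2 ubiquitous members were well above the 2 neural members on both measures. The neural members had the wider ranges of junction read levels over libraries when the highest is divided by the lowest.

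**Figure D1:**
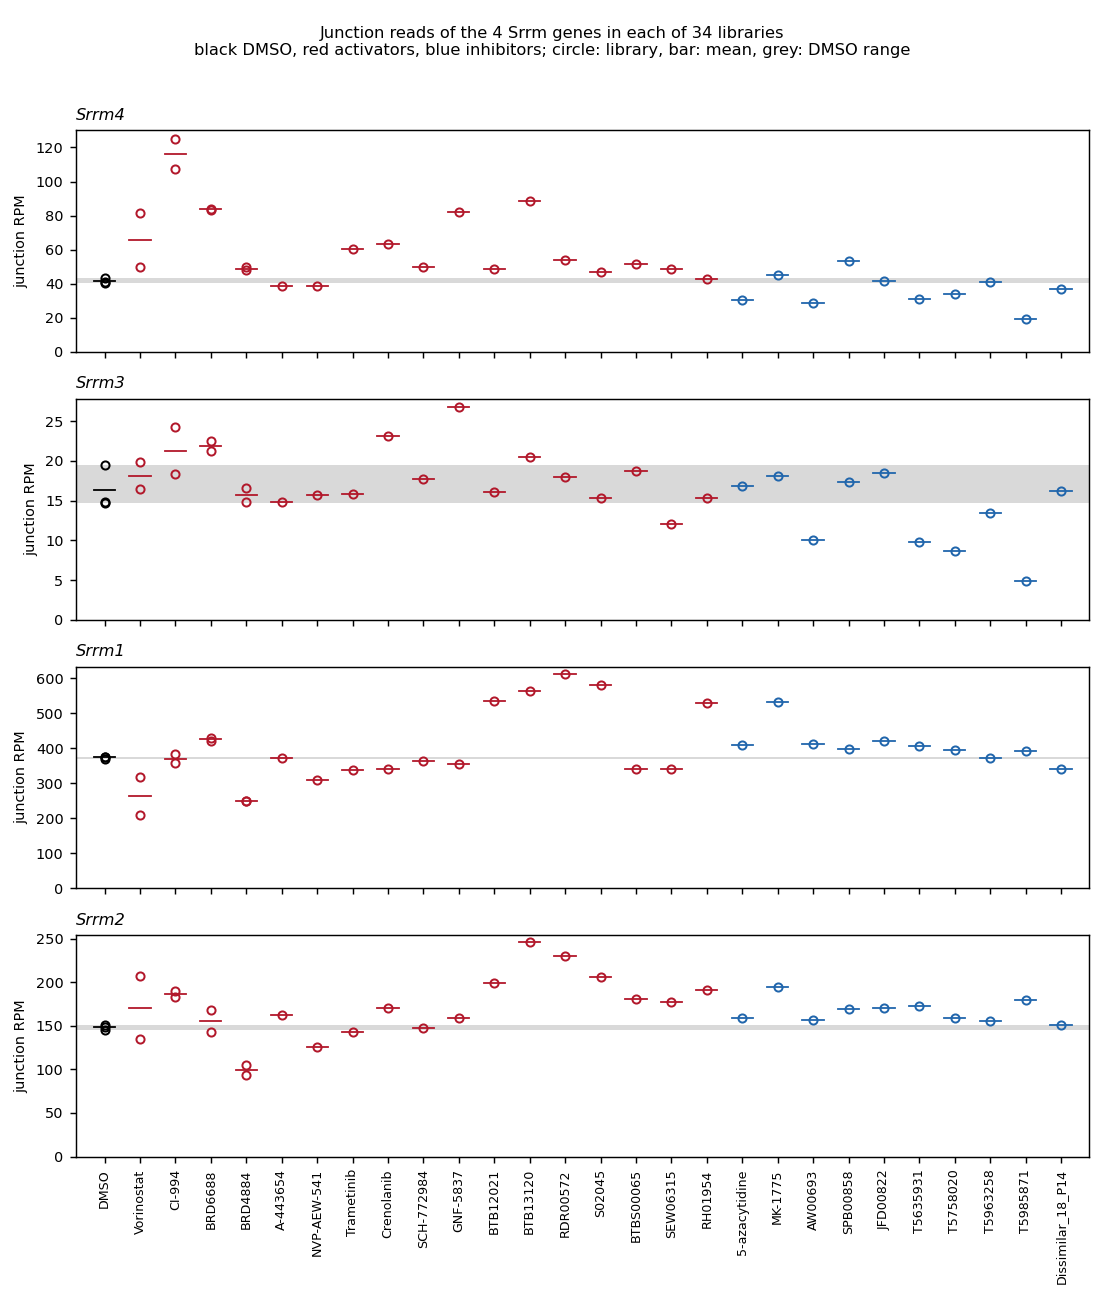
Junction read levels of the 4 members in every library, in junction RPM (vertical axis, from 0), by condition (horizontal axis); each circle is 1 library, each bar the mean of a condition and the grey band the DMSO range, with DMSO in black, activators in red and inhibitors in blue. Srrm4 lies highest in the CI-994 libraries, and Srrm3 and Srrm4 lie lowest in T5985871.

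Over the 108 pairs of a member and a compound, 22 were called, 14 higher and 8 lower than DMSO, in 13 of the 27 compounds. Among all gene and compound pairs tested, 13.5% were called higher and 11.8% lower. The number of members called depended on how far the Vorinostat libraries, which stood apart from each other, entered the estimate of spread. Without the first Vorinostat library, 48 pairs were called, 34 higher and 14 lower, while 18.4% of all pairs were called higher and 17.2% lower. Without the second Vorinostat library, 47 pairs were called. With no filter on low values 12 of the 22 pairs kept their call, and those lost were Srrm1 in MK-1775, BTB13120 and RDR00572, Srrm2 in CI-994 and BTB13120, Srrm3 in T5635931, AW00693, CI-994 and BRD6688, and Srrm4 in Crenolanib. In that setting 9.83% of all pairs were called higher and 6.88% lower.

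Srrm4, the neural activator of microexons, was higher in 6 activators and lower in 1 inhibitor. Without either Vorinostat library it was called higher in 10 compounds and lower in 5. In the DMSO libraries Srrm4 was at 43.3, 40.8 and 40.6 junction RPM. With CI-994 at 5 μM it was at 124.8 and 107.2, the highest of all conditions. With BRD6688 at 10 μM it was at 83.3 and 83.9. Neither pair of libraries overlapped DMSO. The change from DMSO on the log2 scale was 1.47 ± 0.15 (SE) in CI-994, with an adjusted p of 9.2e-07 by limma, and 1.0 ± 0.15 in BRD6688, with an adjusted p of 7.4e-05. In these 2 compounds 40.1% and 39.8% of all genes were called higher, so that a call of a higher gene was common in both.

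Vorinostat at 2.5 μM gave Srrm4 levels of 49.5 and 81.2 junction RPM in its 2 libraries, both above DMSO but far apart. The log2 change of Srrm4 was 0.61 ± 0.15, with an adjusted p of 0.0025, and 40.3% of all genes were called higher in this compound. Leaving out either library moved the change between 0.25 and 0.96. BRD4884 at 10 μM gave 47.9 and 49.5 junction RPM, above all DMSO libraries but by a log2 change of only 0.23 ± 0.15, which was not called (adjusted p = 0.22).

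Of the other activators, BTB13120 at 625 nM had an Srrm4 level of 88.6 junction RPM, GNF-5837 at 500 nM had 82.0, and Crenolanib at 2 μM had 63.1. All 3 single libraries were above the DMSO range. The log2 changes were 1.08 ± 0.19 in BTB13120 (adjusted p = 0.0016), 0.97 ± 0.19 in GNF-5837 (adjusted p = 0.0013) and 0.60 ± 0.19 in Crenolanib (adjusted p = 0.032), by limma. The shares of all genes called higher were 16.1%, 26.2% and 19%. The call in Crenolanib was lost without any 1 of the 3 DMSO libraries (adjusted p up to 0.076). Trametinib at 1 μM, with 60.4 junction RPM, missed the threshold (adjusted p = 0.065).

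Among the inhibitors, T5985871 at 6.7 μM had an Srrm4 level of 19.2 junction RPM, the lowest of all libraries. The log2 change fell by 1.09 ± 0.19 (adjusted p = 0.00034 by limma), in a compound in which 36.4% of all genes were called lower. AW00693 at 5 μM, with 28.6 junction RPM, missed the threshold (adjusted p = 0.051). The other inhibitors gave Srrm4 levels between 30.3 and 53.0 junction RPM, with no call. The order from CI-994 down to T5985871 is a description, since neighbours in it were not tested against each other except for the pair of BRD compounds below.

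**Figure D2:**
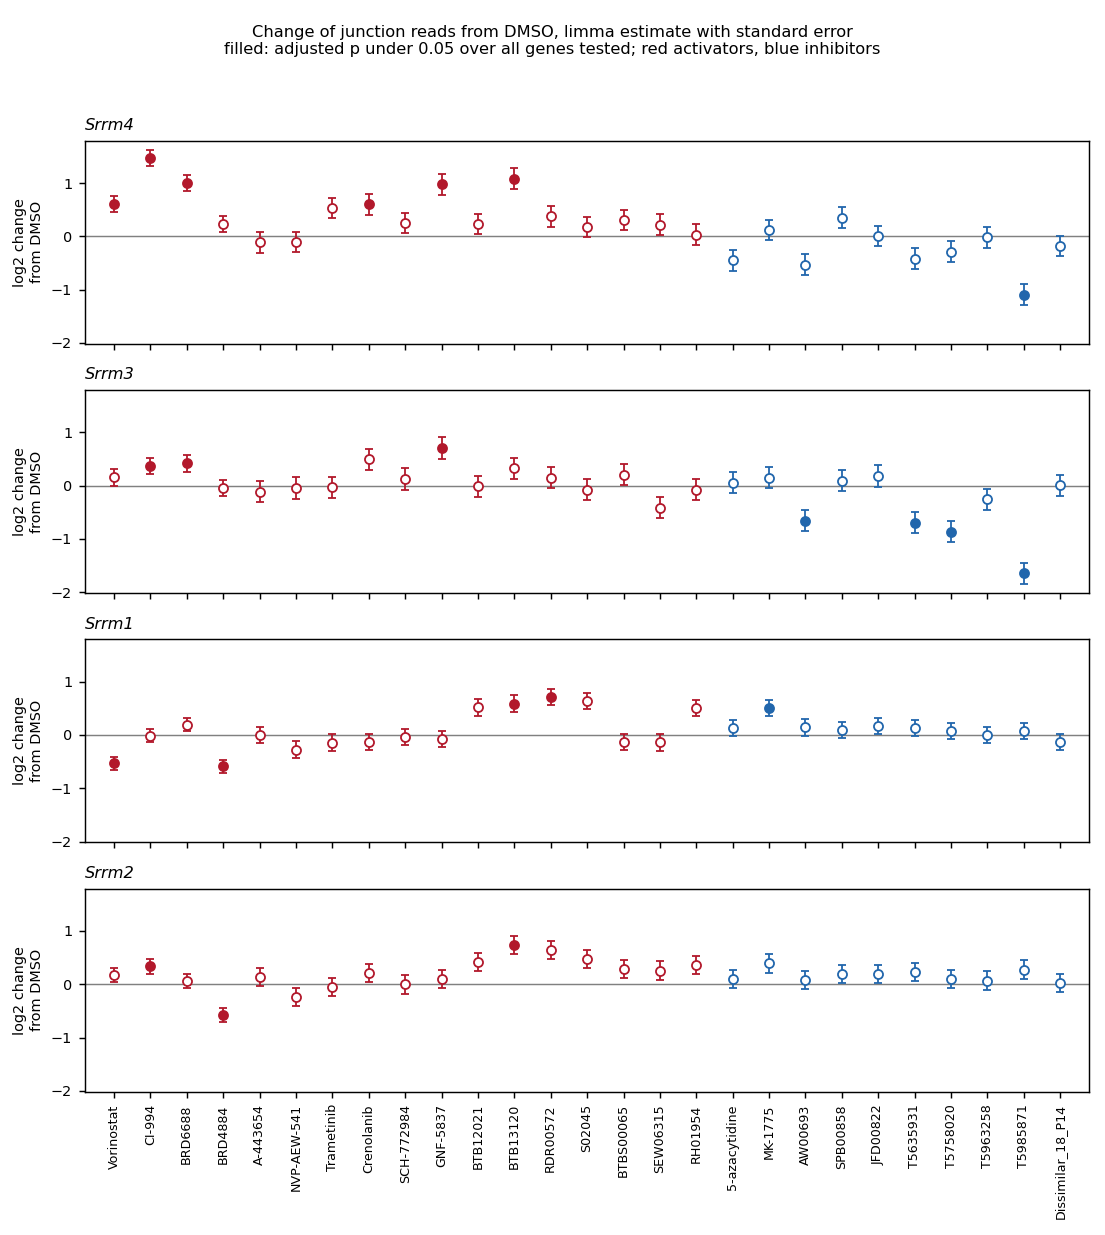
Log2 change of junction reads from DMSO for each member (panels) and compound (horizontal axis); points are limma estimates, bars their standard errors, and filled points had an adjusted p under 0.05. Filled points for Srrm4 lie above 0 in 6 activators (red) and below 0 in T5985871 (blue).

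Srrm3, the neural paralogue of Srrm4, was called higher in 3 activators and lower in 4 inhibitors. The DMSO libraries had 19.5, 14.7 and 14.9 junction RPM. T5985871 had 4.85, T5758020 had 8.68, T5635931 had 9.84 and AW00693 had 10.1. All 4 inhibitor libraries were below the DMSO range. On the log2 scale the change was -1.64 ± 0.20 in T5985871 (adjusted p = 1.6e-05), -0.86 ± 0.20 in T5758020 (adjusted p = 0.0090), -0.69 ± 0.20 in T5635931 (adjusted p = 0.025) and -0.66 ± 0.20 in AW00693 (adjusted p = 0.021). The shares of all genes called lower were 36.4%, 12.7%, 13.6% and 21.1%. Without the first DMSO library, the highest of the 3, the calls of Srrm3 in T5635931 (adjusted p = 0.068) and AW00693 (adjusted p = 0.060) were lost. T5985871, T5758020 and T5635931 were given at the same dose of 6.7 μM, as were T5963258 and Dissimilar_18_P14, in which Srrm3 was at 13.5 and 16.3 junction RPM with no call.

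Srrm3 was higher in GNF-5837, BRD6688 and CI-994. GNF-5837 had 26.7 junction RPM, the highest Srrm3 level, against 21.3 and 22.5 in BRD6688 and 24.2 and 18.3 in CI-994. The second CI-994 library lay inside the DMSO range. The log2 changes were 0.71 ± 0.20 in GNF-5837 (adjusted p = 0.011), 0.42 ± 0.16 in BRD6688 (adjusted p = 0.030) and 0.37 ± 0.16 in CI-994 (adjusted p = 0.045). Those in BRD6688 and CI-994 were lost without the second or the third DMSO library or without a library of BRD6688, and that in CI-994 also without either BRD4884 library or the first CI-994 library, with adjusted p up to 0.14 and 0.42. BTB13120, in which Srrm4 was called, had an Srrm3 level of 20.5 junction RPM and no call (adjusted p = 0.21).

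Srrm1, the splicing coactivator, was at 376.3, 369.3 and 375.0 junction RPM in DMSO. Without either Vorinostat library its 5 calls became 11. It was at 611.5 in RDR00572, 562.2 in BTB13120 and 532.1 in MK-1775, all above the DMSO range. The log2 changes were 0.71 ± 0.15 (adjusted p = 0.023), 0.59 ± 0.15 (adjusted p = 0.012) and 0.51 ± 0.15 (adjusted p = 0.030). In RDR00572 only 1.14% of all genes were called higher, against 16.1% in BTB13120 and 13.8% in MK-1775. The calls in RDR00572 and MK-1775 were lost without any 1 of the DMSO libraries (adjusted p up to 0.077 and 0.070). Levels of the same size did not pass in other activators, with 580.0 junction RPM in S02045 (adjusted p = 0.051), 534.9 in BTB12021 (adjusted p = 0.061) and 528.7 in RH01954 (adjusted p = 0.27). Since the adjustment was made within each compound, a change of 0.51 ± 0.15 was called in MK-1775 and 0.50 ± 0.15 in RH01954 was not.

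Srrm1 was lower in 2 HDAC inhibitors. BRD4884 had 247.9 and 250.3 junction RPM, below all DMSO libraries, a log2 change of -0.58 ± 0.12 (adjusted p = 0.0010). Vorinostat had 208.3 and 318.5, also below DMSO, with a change of -0.54 ± 0.12 (adjusted p = 0.0013) that ranged from -0.84 to -0.23 when either library was left out. In these compounds 20.7% and 35.9% of all genes were called lower. The CI-994 libraries, at 382.4 and 356.7, lay on both sides of the DMSO range, and the BRD6688 libraries, at 421.5 and 429.5, lay above it without a call (adjusted p = 0.19).

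Srrm2, the speckle scaffold, was at 148.3, 150.5 and 145.4 junction RPM in DMSO. BTB13120 had 246.0, the highest level, a log2 change of 0.73 ± 0.17 (adjusted p = 0.0068). CI-994 had 190.0 and 183.4, a change of 0.33 ± 0.13 (adjusted p = 0.037), a call lost without any 1 library of DMSO or CI-994 (adjusted p up to 0.15). Both compounds lay above the DMSO range. BRD4884 had 93.8 and 105.2, below it, a change of -0.57 ± 0.13 (adjusted p = 0.0023). RDR00572, with 230.3, missed the threshold (adjusted p = 0.059). No inhibitor had a call for Srrm2 with all libraries, but without the first or the second Vorinostat library Srrm2 was called in 14 or 13 compounds, MK-1775, T5635931 and T5985871 among them.

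BRD6688 and BRD4884, both HDAC inhibitors and both given at 10 μM, differed in their member levels, and were compared directly after their values had been seen. The study describes both as derivatives of CI-994, and no structural difference between them is described here. Srrm1 was higher in BRD6688 than in BRD4884 by 0.77 on the log2 scale (95% interval 0.48 to 1.06, adjusted p = 0.0044 by limma). Srrm2 was higher by 0.64 (0.32 to 0.96, adjusted p = 0.0092) and Srrm4 by 0.77 (0.41 to 1.13, adjusted p = 0.0072). For Srrm3 the difference was 0.47 (0.10 to 0.84) and missed the threshold (adjusted p = 0.052). Between these 2 compounds 11.3% of all genes were called higher and 20.3% lower in BRD6688. This was 1 pair of compounds compared, and CI-994 and Vorinostat, given at other doses, were not compared with them.

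In the merged RPKM values only 3 of the 108 pairs passed 2-fold, a description with no test. These were Srrm3 in T5985871 at 6.56 RPKM and in AW00693 at 7.39 RPKM, against 18.5 RPKM in DMSO, and Srrm4 in T5985871 at 3.34 RPKM, against 10.4 RPKM in DMSO. On the log2 scale after adding 0.5 RPKM, these ratios to DMSO were -1.43, -1.27 and -1.51. In T5985871 8.41% of all genes were past 2-fold lower, and in AW00693 2.57%, against 3.86% lower and 2.67% higher over all pairs. The highest Srrm4 value, 19.6 RPKM in CI-994, did not pass. All genes together shifted on this scale, with a median log2 ratio between -0.44 in CI-994 and 0.00 in T5758020, beyond 0.1 in 14 of 27 compounds. After centring on that median Srrm4 in CI-994 also passed 2-fold, giving 4 pairs, while 10.2% of all genes were past 2-fold higher in CI-994 before centring. The median of all genes in junction reads moved less, between -0.18 and 0.14. The measures were furthest apart for Srrm3 in NVP-AEW-541, with a log2 ratio of -0.83 in RPKM and a log2 change of -0.04 in junction reads.

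**Figure D3:**
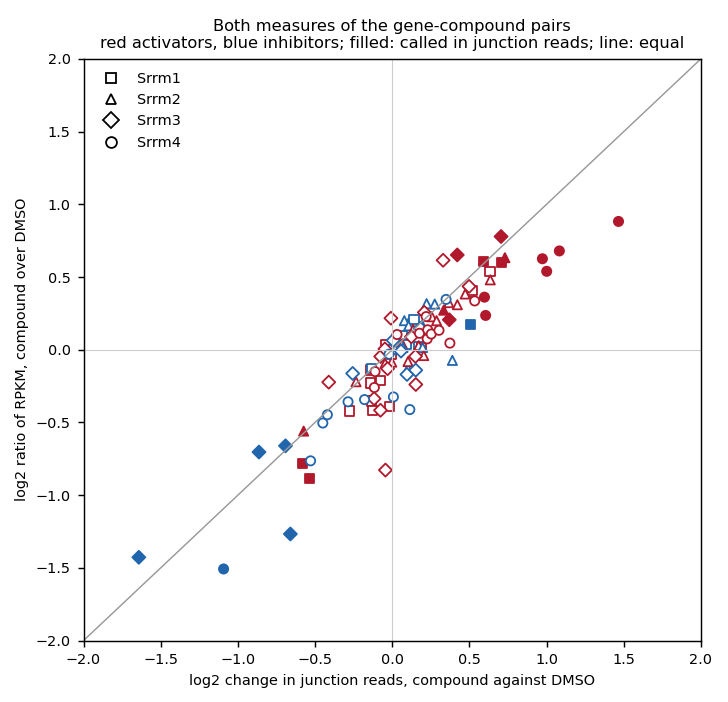
Log2 change from DMSO in merged RPKM (vertical axis) against the change in junction reads (horizontal axis) for the 108 pairs of a member and a compound, each point 1 pair. The sign was the same in 93 pairs, including all 22 called in junction reads; all points share the DMSO libraries.

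The genes whose RPKM followed a member most closely over the 28 conditions were named by the highest Pearson r among 11088 genes. For Srrm4 these were Map1b (r = 0.94), which encodes a microtubule-associated protein of neurons, Gnao1 (r = 0.93), which encodes a G protein subunit abundant in brain, and Zfhx2 (r = 0.92). Map1b was at 228.5 RPKM in DMSO and ranged from 75.1 to 635.3 RPKM. For Srrm3 they were Tmem127 (r = 0.89), Fbrs (r = 0.89) and Mtus2 (r = 0.87). For Srrm1 they were Eif4enif1 (r = 0.89), which encodes a transporter of the translation factor eIF4E, Zfp142 (r = 0.88) and Mettl16 (r = 0.84), an RNA methyltransferase. For Srrm2 they were Jmjd1c (r = 0.80), Golga4 (r = 0.78) and Dot1l (r = 0.77), a histone methyltransferase. Between members, Srrm3 and Srrm4 had r = 0.78 (Spearman 0.62), Srrm1 and Srrm2 had r = 0.66 (Spearman 0.56), and the 4 other pairs had r between -0.17 and 0.03. These correlations carry no test, since each point shares a library with all genes in it.

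The members' own exons and introns were examined next. Inclusion of an exon was the percent spliced in (PSI) and retention of an intron the percent intron retention (PIR), and a change was called at 10 points or more with a posterior probability above 0.95 from the reads. Of 45 exons 24, and of 49 introns 43, had enough reads in DMSO and at least 1 compound. Exons gave 3 higher and 13 lower calls in 619 pairs with a compound, and introns gave 5 higher calls and none lower in 1125 pairs. Over all genes 0.466% of exon pairs were called higher and 0.843% lower, and 0.303% of intron pairs were called higher and 0.0845% lower. Of the 21 calls, 16 could be tested on the spread between libraries, by limma on the PSI or PIR values of the libraries. A call by limma needed an adjusted p under 0.05 and a change of at least 10 points. Of the 16, 3 were also called by limma, all 3 for 1 exon of Srrm1.

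The sequences of 4 of these exons are shown, the 2 Srrm1 exons whose inclusion differed most between compounds, the short Srrm4 exon whose transcript is annotated as a target of nonsense-mediated decay, and the Srrm3 exon called in S02045. They were taken from GENCODE transcripts on the mouse build GRCm38 by exon length and by distance to the neighbouring exon. Capitals mark the exon and lower case the 20 bases of the adjoining exons, or of the upstream exon alone for the 130-nt exon, all 5′ to 3′ along the transcript. The Srrm1 exons lie at chr4:135329004-135329045 and chr4:135346316-135346445 on the minus strand, the Srrm4 exon at chr5:116454673-116454688 on the minus strand and the Srrm3 exon at chr5:135852391-135852471 on the plus strand.
Srrm1 42-nt exon: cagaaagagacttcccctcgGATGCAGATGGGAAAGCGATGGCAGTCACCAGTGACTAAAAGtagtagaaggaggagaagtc
Srrm1 130-nt exon: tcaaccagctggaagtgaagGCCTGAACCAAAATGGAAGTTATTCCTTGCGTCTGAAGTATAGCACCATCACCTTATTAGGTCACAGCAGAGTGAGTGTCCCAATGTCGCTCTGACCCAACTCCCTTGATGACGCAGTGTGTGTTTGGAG
Srrm4 16-nt exon: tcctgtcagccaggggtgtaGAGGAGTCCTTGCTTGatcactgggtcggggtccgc
Srrm3 81-nt exon: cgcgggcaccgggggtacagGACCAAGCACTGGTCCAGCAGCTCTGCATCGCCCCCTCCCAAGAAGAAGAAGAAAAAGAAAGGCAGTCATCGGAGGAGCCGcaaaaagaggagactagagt

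The 42-nt exon of Srrm1 is exon 13 of the protein-coding transcript Srrm1-202, and its length is a multiple of 3, so that including or skipping it keeps the reading frame. The files place it at chr4:134884919-134884960 on the build mm9. It was included at 71.1%, 63.3% and 66.8% in the DMSO libraries. Inclusion was called lower in 6 inhibitors, at 46.2% in T5985871, 49.7% in AW00693, 53.4% in MK-1775, 53.7% in T5635931, 55.9% in T5758020 and 56.0% in T5963258, all below the DMSO range. It was called higher in 2 activators, at 77.3% in Crenolanib and 78.1% in GNF-5837, above that range. Without a call, SCH-772984, NVP-AEW-541, SEW06315, BTBS00065, BTB13120, A-443654, Trametinib and both libraries of CI-994, BRD6688 and Vorinostat were also above it. These uncalled values were 72.0% to 76.4%, so a value above it was not particular to the called activators. BRD4884, at 70.5% and 76.9%, lay within and above it. BTB12021, RDR00572 and S02045 lay within it. RH01954, at 63.1%, and 5-azacytidine, at 61.8%, lay below it, also without a call. With 260 to 2107 reads per library, the value in T5985871 had a 95% Wilson interval of 42.6% to 50.1%, which like the other intervals and limits covers counting error only.

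By limma on the library values, T5985871 (adjusted p = 0.0047), AW00693 (adjusted p = 0.035) and MK-1775 (adjusted p = 0.036) passed for this Srrm1 exon, and the other 5 compounds did not, with adjusted p between 0.14 and 0.37. The shares of all exons called lower were 2.49% in T5985871, 1.17% in AW00693, 2.39% in MK-1775, 0.794% in T5635931, 0.973% in T5758020 and 0.621% in T5963258. The shares called higher were 0.623% in Crenolanib and 0.771% in GNF-5837. In 5 of the 6 inhibitors the junction read level of Srrm1 itself was not called, and in MK-1775 it was higher, as above.

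**Figure D4:**
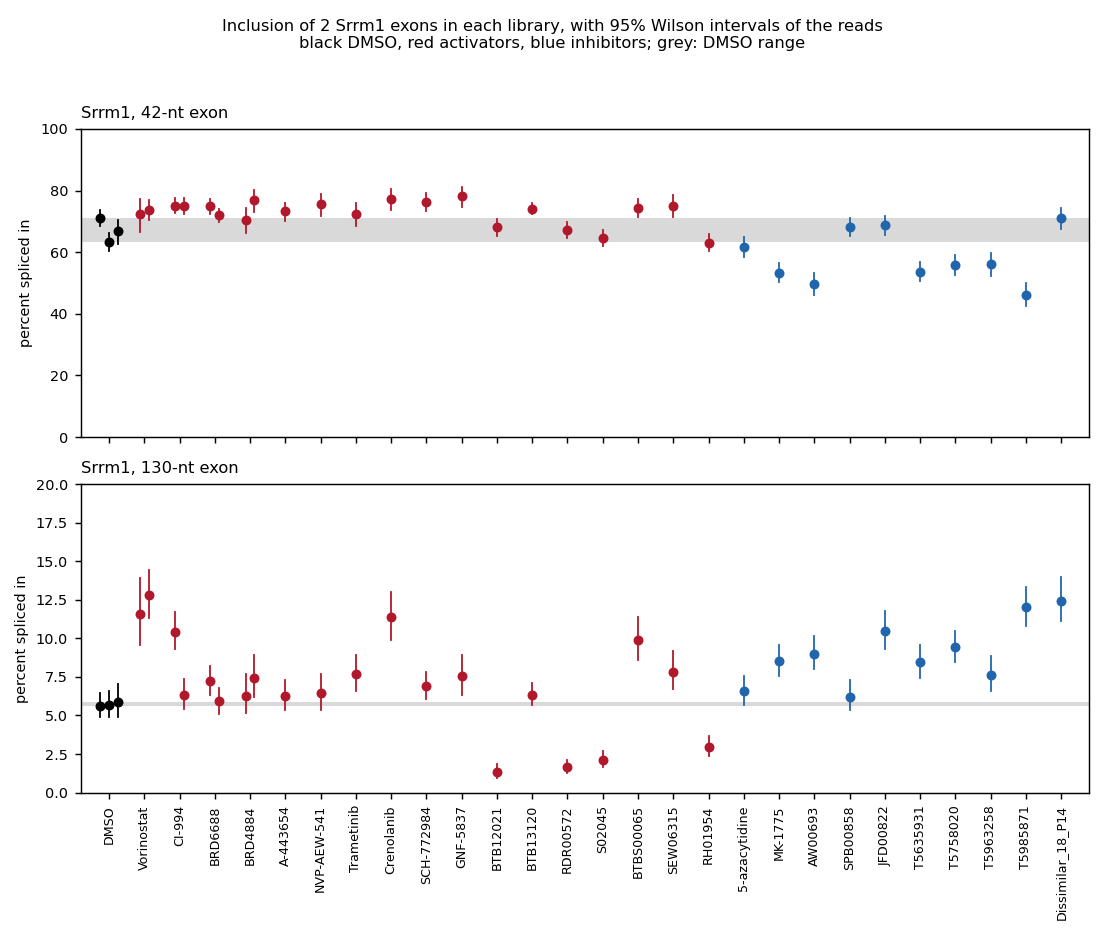
Percent spliced in of the 42-nt and 130-nt exons of Srrm1 in each library, by condition, with 95% Wilson intervals of the reads and the DMSO range in grey. T5985871 and AW00693 lie lowest for the 42-nt exon, and BTB12021, RDR00572, S02045 and RH01954 lie lowest for the 130-nt exon.

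The 130-nt exon of Srrm1 was not called in any compound and is described because of its values. It is annotated as the start of exon 4 in Srrm1-206, a transcript without a coding sequence, its length is not a multiple of 3, and in mm9 it is at chr4:134902231-134902360. It was included at 5.62%, 5.67% and 5.88% in the DMSO libraries. It was at 1.35% in BTB12021, 1.64% in RDR00572, 2.13% in S02045 and 2.93% in RH01954, the 4 lowest of 34 libraries and the only ones below DMSO. Their Wilson intervals did not overlap those of the DMSO libraries, with the nearest bounds at 3.6% in RH01954 and 4.9% in DMSO. Those intervals cover counting error only, not the spread between libraries. The 4 libraries were picked for their low values, so this is a description.

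These 4 activators were also the ones in which the Srrm1 junction read level was 528.7 or more, alongside BTB13120 and MK-1775, whose inclusion of the 130-nt exon was 6.34% and 8.53%. By limma on PSI none of the 4 passed, with adjusted p of 0.23 in BTB12021, 0.22 in RDR00572, 0.36 in S02045 and 0.71 in RH01954. Higher inclusion passed in Vorinostat, at 11.6% and 12.8% (adjusted p = 0.046), and in T5985871, at 12% (adjusted p = 0.049). Inclusion in Dissimilar_18_P14 and Crenolanib was also above DMSO, at 12.5% and 11.4%.

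Most calls of Srrm3, 5 of 8, were in a 79-nt exon, at chr5:136345590-136345668 in mm9, whose length is not a multiple of 3. It was included at 57.5%, 73.8% and 58.2% in the DMSO libraries, on 41 to 153 reads. Inclusion was 33.9% in RH01954, 38.3% in RDR00572, 38.3% in MK-1775, 39.3% in S02045, and 39.1% and 40.5% in Vorinostat, all below the DMSO range. The median over all libraries, passing or not, was 56.2%. This median was itself below that range, so a value below it was not particular to the called compounds. None of these 5 compounds passed by limma on PSI, with adjusted p between 0.28 and 0.42. The shares of all exons called lower were 0.827% in RH01954, 1.85% in RDR00572, 1.53% in S02045 and 0.431% in Vorinostat. BRD6688, at 39.7% and 53.7%, was also below the DMSO range, without a call. So were the libraries of JFD00822, BTB12021, Crenolanib, BTB13120, A-443654, T5635931, SCH-772984 and GNF-5837. CI-994, at 86.7% and 64.9%, and BRD4884, at 83.0% and 55.5%, each had 1 library above that range and the other within or below it.

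**Figure D5:**
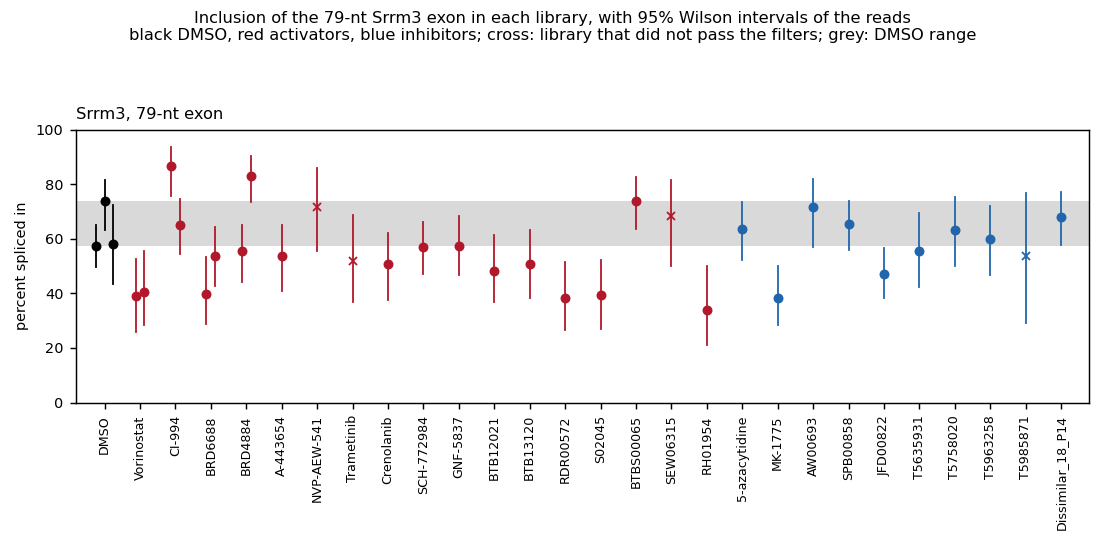
Percent spliced in of the 79-nt exon of Srrm3 in each library, by condition, with 95% Wilson intervals of the reads; crosses are libraries that did not pass the coverage and balance filters and the grey band is the DMSO range. The intervals are wide, for example 21.2% to 50.1% in RH01954.

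The 81-nt exon of Srrm3, at chr5:136328261-136328341 in mm9 and exon 5 of the protein-coding transcript Srrm3-204, was included at 97%, 100% and 100% in DMSO. It was at 82.8% in S02045, on 66 reads, the lowest of the 33 libraries that passed. Of the 14 annotated Srrm3 exons, 12 had a median inclusion of 98% or more over the libraries, and only 3 had enough reads for a comparison.

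Srrm4 had no exon called. Of its 11 exons, 10 had a median inclusion of at least 98%, and a 27-nt exon, itself of microexon length, was at 100% in all libraries. The 16-nt exon of Srrm4, at chr5:116904682-116904697 in mm9, passed the filters in 10 of 34 libraries and in none of DMSO, so it was not compared. In DMSO it was at 0.71%, 0.54% and 0%, where the 0 of 56 reads allows up to 5.36%. Values that passed reached 7.5% in BTB12021, with 6.04% and 6.53% in CI-994. Values that did not pass reached 16.6% in NVP-AEW-541.

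In Srrm2 a 268-nt exon, at chr17:23943902-23944169 in mm9, was called in 2 activators. It was included at 83.2%, 73.3% and 79.5% in DMSO, at 87.6% and 91.3% in CI-994, and at 68.4% in RH01954. The CI-994 libraries lay above the DMSO range and RH01954 below it, but neither passed by limma on PSI (adjusted p = 0.14 and 0.41). Without a call, both libraries of BRD4884 and BRD6688, the second Vorinostat library and GNF-5837 also lay above that range. SPB00858, T5635931, T5963258, T5758020, BTBS00065 and Dissimilar_18_P14 lay below it, also without a call. The share of all exons called higher in CI-994 was 0.862%.

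Of the introns, 5 had 1 call each, all towards more retention. A 1090-nt intron of Srrm2 was retained at 20.9% and 10.6% in CI-994, above all DMSO libraries at 2.90%, 3.51% and 4.07%, with an adjusted p of 0.057 by limma. Both libraries of BRD4884, at 8.34% and 12.2%, of Vorinostat and of BRD6688 were also above DMSO, without a call. The median over all libraries, 5.1%, was above DMSO too. In CI-994 0.456% of all introns were called higher. A 13718-nt intron of Srrm4, within which the 16-nt exon lies, was retained at 12.7% in RH01954 on 62 reads, against 0% to 3.66% in DMSO. CI-994, at 9.6% and 8.88%, was also above DMSO in this intron but under the limit of 10 points. The share of all introns called higher was 0.255% in RH01954.

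The remaining introns rested on few reads. A 3785-nt intron of Srrm3, within which the 79-nt exon lies, was retained at 61.9% in 1 CI-994 library on 17 reads. The other CI-994 library, at 20%, did not pass the filters, and DMSO was at 1.18%, 7.14% and 15.4%. A 1270-nt intron of Srrm3 was at 14.5% in RDR00572 on 37 reads against at most 2.75% in DMSO. In RDR00572 1.09% of all introns were called higher. A 4667-nt intron of Srrm2 was at 16% in NVP-AEW-541 on 29 reads against at most 5.26% in DMSO. In NVP-AEW-541 0.136% of all introns were called higher. Such a value was not particular to this compound. Without a call, BRD4884 was at 17.2% on 17 reads and 4.35%, GNF-5837 at 11.1%, and CI-994 at 2.86% and 10.6%.

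Other genes of the splicing pathway were taken from 3 lists. Among neural splicing regulators, 20 of 26 genes were tested and gave 98 higher and 93 lower calls in 540 pairs, or 18.1% and 17.2%. Of the cofactors and regulators of Srrm4, Srsf11, U2af2 and Rest were tested and gave 8 higher and 8 lower calls in 81 pairs. Of the speckle and exon junction partners of Srrm1 and Srrm2, 9 of 11 were tested and gave 8 higher and 42 lower calls in 243 pairs, or 3.29% and 17.3%, beside 13.5% and 11.8% of all gene and compound pairs. Most of these lower calls were in the HDAC inhibitors. The share of all genes called lower was 36.9% in CI-994, 35.9% in Vorinostat and 20.7% in BRD4884. That share is not given here for BRD6688, which also had lower calls in this list. The median log2 changes of the lists over all pairs were -0.03, 0.05 and -0.05.

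CI-994 and BTB13120 had 3 members called each with the filter on low values, and 1 each without it. In CI-994, 11 of the 32 listed genes were higher and 15 lower, beside 40.1% and 36.9% of all genes. The splicing factor Mbnl2 rose from 37.6 junction RPM in DMSO to 151.5, Elavl2 from 152.6 to 396.2, Celf3 from 225.6 to 438.5 and Celf6 from 12.5 to 33.7. Celf5, Rbm38, Rbfox2, Nova2, Qk and Elavl3 also rose, by 0.27 to 1.58 on the log2 scale. Rest, the transcriptional repressor of neural genes that also represses Srrm4, rose from 1.91 to 5.82 junction RPM.

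The genes that fell in CI-994 included Ptbp2, a repressor of neural exons, from 181.5 to 57.4 junction RPM. The 3′ splice site factor U2af2 fell from 231.6 to 80.9 and the exon junction genes Magoh, from 57.2 to 17, and Rbm8a, from 43.1 to 16.9. Nova1, Acin1, Tra2a, Cwc22, Celf1, Son, Tra2b, Srsf11, Khdrbs1, Ptbp1 and Elavl1 fell as well, with log2 changes from -1.21 to -0.24. Srsf11 is a cofactor of Srrm4 on microexons.

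In BTB13120, 11 listed genes were higher and 6 lower, beside 16.1% and 17.9% of all genes. Celf5 rose by 1.09 on the log2 scale, Rbm38 by 0.86, Celf4 by 0.68 and Elavl4 by 0.68, and Qk, Mbnl1, Mbnl2, Rbfox2, Elavl1, Celf3 and Elavl2 rose by 0.31 to 0.67. Rbm8a fell by 1.13 and Magoh by 1.0, and Nova1, U2af2, Tra2a and Acin1 had changes from -0.48 to -0.23. In RDR00572, in which Srrm1 was higher, only Ptbp2 and Son, the speckle partner of Srrm2, were called among the 32 genes, both higher, by 0.79 and 0.53.

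In T5985871, in which Srrm3 and Srrm4 were lower, 6 listed genes were higher and 16 lower, beside 17.6% and 36.4% of all genes. Rbm38 rose from 46.3 to 355.8 junction RPM, and Celf3, Elavl4 and Rbfox1 changed by -1.96, -1.78 and -1.20 on the log2 scale. AW00693 had 2 higher and 9 lower, beside 10.9% and 21.1% of all genes, with Rbm38 up by 2.03 and Celf3 at -1.58. GNF-5837 had 12 higher and 5 lower, beside 26.2% and 17.5% of all genes, with Celf5, Nova2 and Celf6 up by 1.31, 1.26 and 1.25.

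A 21-nt microexon of Mef2d, an exon known to depend on Srrm4, was set beside these levels. The screen reporters carried a modified copy of this microexon, so the compounds had been selected by their effect on it. Its direction of change with a compound was therefore not independent of how the compounds were chosen. The microexon was included at 89.5%, 88.7% and 88.7% in DMSO, 97.1% and 94.2% in CI-994, 94.5% and 95.1% in BRD6688 and 96.4% and 96.1% in BRD4884. The HDAC inhibitor libraries named here lay above DMSO, those of BRD4884 included, in which Srrm4 was not called. The microexon was at 70% in AW00693, 54.6% in T5985871 and 90.2% in BTB13120, in which Srrm4 was higher. Its values in the other compounds are not given here. These include Vorinostat, GNF-5837 and Crenolanib, in which Srrm4 was also called higher. Any relation between the Srrm4 level and this microexon was not tested.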

How the data were processed

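N2A libraries were grouped by their labels. The authors quantified transcripts with Salmon (version 0.10.2 per the labels) and deposited RPKM values, merged per condition; exon and intron usage was quantified with vast-tools on mm9, and the deposited table gives percent values and the reads behind them, used here as counts and percent per library. Compound names, classes and doses came from the study's supplement. Columns of the authors' own comparisons hold fold changes and p-values and were not used. Members and lists were chosen with earlier results of these data known. Junction reads were summed per gene over its introns and scaled to the library total. Genes with a mean of at least 20 reads were tested on log2(junction RPM + 0.5), in all 34 libraries with 1 group per treatment, by limma 3.58.1 in R 4.3.3 with a variance trend and Benjamini-Hochberg adjustment. RPKM ratios used a pseudocount of 0.5, and 2-fold was read only above 5 RPKM in either condition. Fold changes on these scales understate low genes. Events needed sufficient coverage and balanced junction reads, at least 15 reads for introns, in at least 50% of the libraries of a condition. The fits were tested on simulated data. Libraries were not paired by replicate letter, and alternatives are described in the closing section. Named genes were the members, the 3 genes most like each, called events, list genes called in the compounds with the most member calls and up to 3 a direction in others.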

Additional observations from a re-analysis of the deposited data

How the results depend on the processing

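The 22 member and compound pairs called in junction reads became 18 with median-of-ratios size factors (10 higher and 8 lower), 25 with limma-voom weights and 12 with no filter on low values. Leaving out 1 replicated library at a time gave 16 to 48. Of the 22 pairs, 12 kept their call in every setting run, and no pair changed sign. The 257 calls of the splicing regulator lists became 255 with median-of-ratios size factors and 211 to 372 without 1 library. The 21 calls of the members' own events became 9 at a change of at least 15 points, 3 by limma on PSI, which could test 16 of them, 19 with stricter coverage and 19 to 23 without 1 library. The count of 3 pairs past 2-fold in RPKM stayed within 3 to 4. The cause of these differences was not tested, except that leaving out a library changes the estimate of spread by construction.

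Deviations of same-lettered libraries of DMSO and the HDAC inhibitors correlated between -0.22 and 0.09, and libraries were not paired by letter in the main fit. The 2 libraries of an HDAC inhibitor deviate from their mean by opposite amounts. This check therefore cannot decide whether same-lettered libraries were handled together. With the letter as a block, the 9 calls of the members in the HDAC inhibitors became 6. Of the 4 calls of their own events, 3 could be tested by limma on PSI, and 0 passed with the block and 0 without it. Srrm3 had the fewest reads of the members, 121 to 790 a library.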
